A study of Homo sapiens with 16 samples.

Results

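The AlkB family of dioxygenases has 9 members in the human genome, ALKBH1 to ALKBH8 and FTO, and the present account describes their mRNAs in a study of RNA that associates with tagged ALKBH5 or tagged RBM33. The genes were chosen by name, and all 9 were found among the 16324 genes of each of 2 tables of the authors' own comparisons. AlkB proteins are enzymes that use iron, oxygen and 2-oxoglutarate to oxidise a methyl group on a nucleic acid or a protein, after which the group leaves as formaldehyde or stays as an oxidised mark. ALKBH5 and FTO are the family members that remove N6-methyladenosine (m6A), a common internal mark of mRNA, whereas their relatives repair alkylated bases, modify transfer RNA or act on proteins. ALKBH5 is at the same time the bait of one of the tables, so its own mRNA can include reads of the expression construct.

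The assay was RNA immunoprecipitation with sequencing (RIP-seq), in which a protein is pulled out of a lysate and the RNA that comes with it is sequenced beside input RNA. Per the labels, UM-SCC-1 cells, a cultured head and neck cancer line, were infected with lentivirus carrying Strep-Vec-1 (the tag vector alone), Strep-ALKBH5 or Strep-RBM33, and selected with puromycin at 1 ug/mL for 4 days. All groups share the cell line, the virus and the selection, and pull-downs were made with StrepTactin-XT. The 16 libraries fall into 6 groups, with 3 pull-down and 3 input libraries for Strep-Vec-1, 3 and 3 for Strep-ALKBH5, and 2 and 2 for Strep-RBM33. Both tables carry the label siCtrl, which none of the sample titles uses. The tables hold no value per library, so the depth of each library is unknown here and neither a standard deviation nor n can be given. They also do not say which groups were contrasted or which way the ratio runs. "Positive" and "negative" below are the signs in the tables and not a statement of enrichment. A gene was counted as called where the authors' adjusted p was under 0.05, and the F statistic is given as the measure of a change against the spread between the libraries of the authors' fit.

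Markers of the labelled cell type were mostly not among the listed genes. Of 16 markers of squamous epithelium, 5 were listed, and KRT5, KRT14, KRT17 and TP63 were not. The 5 had average levels between 0.60 (CDH1) and 4.61 (EGFR) log2 CPM (CPM, read counts scaled to library size) in the authors' deposited ALKBH5 table. Of 8 genes known from embryonic kidney lines 7 were listed, and in the authors' deposited ALKBH5 table the neurofilament genes NEFL and NEFM stood at 8.10 and 7.72 log2 CPM and the let-7 regulator LIN28B at 5.78. Their levels were 7.42, 7.18 and 6.39 in the authors' deposited RBM33 table. The summed level of the squamous markers was 5.49 and 5.47 log2 CPM in the authors' deposited ALKBH5 and RBM33 tables, and that of the kidney line genes was 9.27 and 8.88. Of 5 fibroblast markers 3 were listed, and of 4 blood cell markers 2, CD68 and HBB. The markers went against the label, and the cells are therefore called by their label only.

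Most of the family was negative or not called in both comparisons, and ALKBH5 in its own table was the exception. In the authors' deposited ALKBH5 table, 1 member was positive (ALKBH5), 4 were negative (ALKBH1, ALKBH2, ALKBH3 and ALKBH8) and 4 were not called. The 5 called members are 55.6% of the family, and 59.6% of all genes were called in that table, 30.5% positive and 29.1% negative. ALKBH1, ALKBH2, ALKBH3 and ALKBH8 were also negative in the authors' deposited RBM33 table, and 5 members were not called. That is 44.4% of the family, and 51.1% of all genes were called there, 24.0% positive and 27.0% negative. The shares of called members lie near those of all genes in both tables. No member was positive in the authors' deposited RBM33 table, neither by the adjusted p of edgeR nor at an unadjusted p under 0.05 (0 genes), and no other tool could be run on these tables. Of all 16324 genes, 4412 were positive there at an unadjusted p under 0.05 by edgeR's test. The family's median log2 fold change was -0.60 for ALKBH5 and -0.30 for RBM33 by the authors' deposited tables, beside 0.03 and -0.02 over all genes and -0.08 and -0.13 over protein-coding genes. With a minimum of 1 log2 unit as well, 2 members remained called in each table, ALKBH3 and ALKBH5 for ALKBH5 and ALKBH1 and ALKBH3 for RBM33, beside 37.2% and 33.8% of all genes, from the authors' deposited tables. With a Bonferroni adjustment ALKBH3 was the 1 member called in each of the authors' deposited tables, beside 16.2% and 7.33% of all genes. The tables may share vector libraries, so their values are set side by side and no agreement between them is drawn.

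Each member was also set beside the protein-coding genes whose listed length is within 20% of its own, as a description without a test, because short genes tended to the negative side. The medians of such genes ran from -1.13 around the 1093 bases of ALKBH7 to 0.87 around the 21379 bases of FTO in the authors' deposited ALKBH5 table. Apart from FTO the members are short: 8 of the 9 lie below the median listed length of protein-coding genes, 5228 bases.

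**Figure D1:**
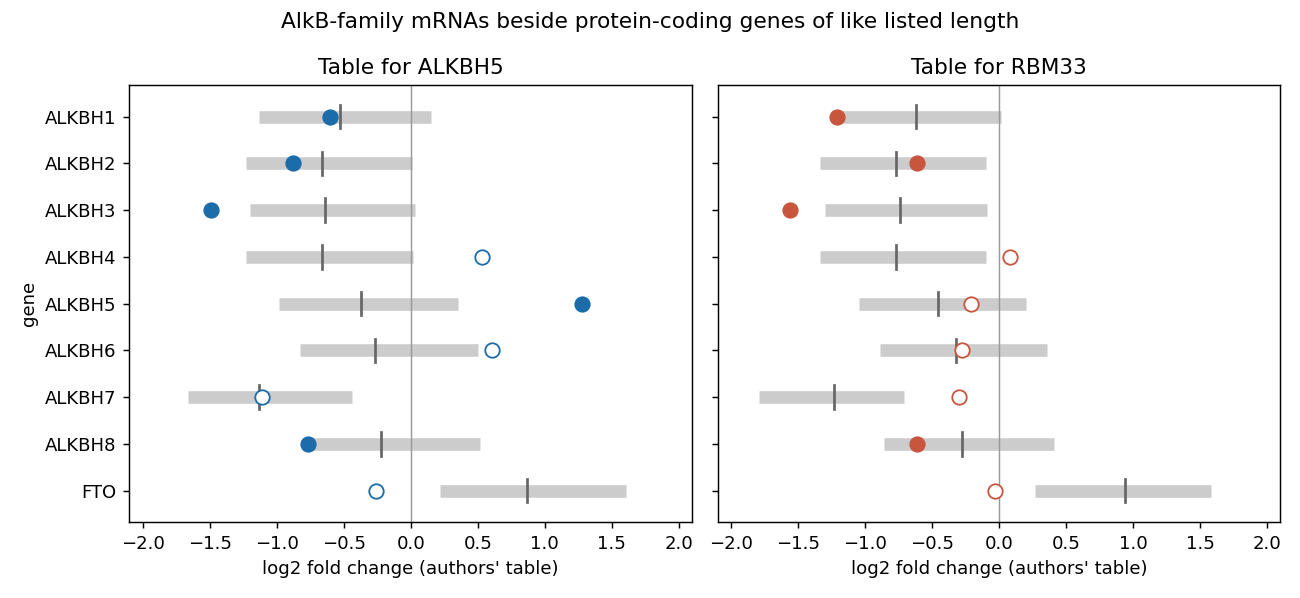
Log2 fold change of each AlkB-family mRNA (circles) in the authors' deposited tables for ALKBH5 (left, blue) and RBM33 (right, red); filled circles passed an adjusted p under 0.05. Grey bars span the interquartile range of protein-coding genes with a similar listed length, and the dark tick is their median. ALKBH5 in its own table (1.28) lies right of its bar, ALKBH3 lies left of its bar in both panels (-1.49 and -1.56), and FTO lies left of a bar that is itself on the positive side.

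ALKBH5 (ENSG00000091542, hg38 chromosome 17, 18183078 to 18209954, plus strand) encodes the nuclear m6A demethylase used as bait. In the authors' deposited ALKBH5 table its mRNA had a log2 fold change of 1.28 (F = 20.2, adjusted p = 0.00158). It did not pass in the authors' deposited RBM33 table, at -0.21 (F = 2.16, adjusted p = 0.245). The 2493 protein-coding genes of like length had medians of -0.37 and -0.46 in the authors' deposited ALKBH5 and RBM33 tables. ALKBH5 was at percentile 92.2 of them in the first and 59.8 in the second. These genes were matched to its listed length, which need not be the length of RNA from the construct.

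The bait's fold change had a small F for so abundant an mRNA. Only 4 protein-coding genes had a higher average log2 CPM than ALKBH5 (12.30) in the authors' deposited ALKBH5 table, a scale that is not divided by length and follows the reads behind a value. Among the 26 other genes there with an average of at least 9 log2 CPM and an absolute log2 fold change within 0.2 of that of ALKBH5, a window set after its values were seen, 23 had a larger F, and their median F was 44.5.

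In the RBM33 table ALKBH5 mRNA was an abundant message but not among the most abundant. Its average was 6.68 log2 CPM in the authors' deposited RBM33 table, where 1382 protein-coding genes had more. The difference between the tables was 5.62 on the log2 scale. The tables are otherwise close in level: across the 16324 genes the median difference was 0.00569 log2 CPM, with quartiles of -0.22 and 0.27, from the authors' deposited tables. The other 8 members differed between the authors' deposited tables by -0.35 (ALKBH8) to 0.66 (ALKBH4). Reads of the endogenous gene and of the expression construct cannot be told apart in the tables.

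**Figure D2:**
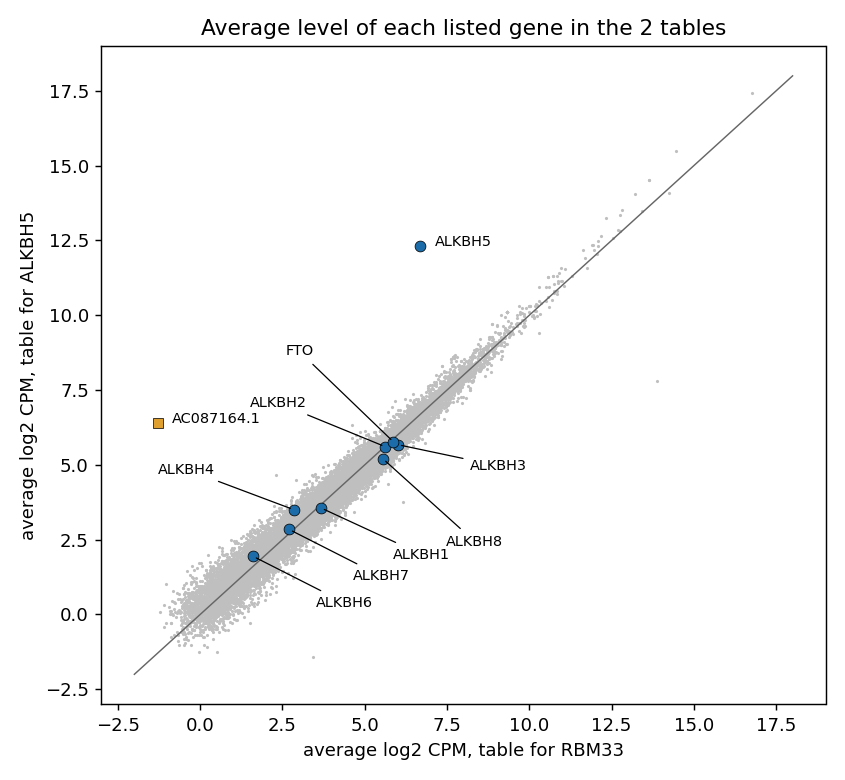
Average log2 CPM of each of the 16324 listed genes (grey) in the authors' deposited RBM33 table (x axis) and ALKBH5 table (y axis), with the line of equal level. Blue circles are the 9 AlkB-family genes and the orange square is the antisense gene AC087164.1; ALKBH5 (6.68 and 12.30) and AC087164.1 (-1.29 and 6.40) lie far above the line and the other 8 members lie along it.

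The gene with the largest difference in level between the tables was not the bait but its antisense neighbour. AC087164.1 (ENSG00000266677, chromosome 17, 18172625 to 18184753, minus strand) is a long noncoding RNA gene whose body overlaps the 5′ end of ALKBH5 by 1676 bases on the opposite strand. Its average level was 6.40 log2 CPM in the authors' deposited ALKBH5 table and -1.29 in the RBM33 table, a difference of 7.70. Its log2 fold change was 5.0 (adjusted p = 0.00701) in the authors' deposited ALKBH5 table and 1.73 (adjusted p = 0.387) in the RBM33 table. Relative to ALKBH5, its level was 1.68% in the authors' deposited ALKBH5 table and 0.399% in the RBM33 table. AC087164.1 and ALKBH5 were therefore both higher in the table in which ALKBH5 was the bait. Few reads stand behind the -1.29 log2 CPM of AC087164.1 in the authors' deposited RBM33 table, on which the difference of 7.70 and the 0.399% rest. The library kit keeps the strand of the RNA, but the strand setting of the counting is not given in the sources used here. Whether the reads counted for AC087164.1 lie in the shared bases, or belong to RNA of the construct, was not tested. Of all 16324 genes, 4 differed by more than 3 log2 units between the authors' deposited tables: AC087164.1, ALKBH5, RBM33 and the haemoglobin gene HBB.

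**Figure D3:**
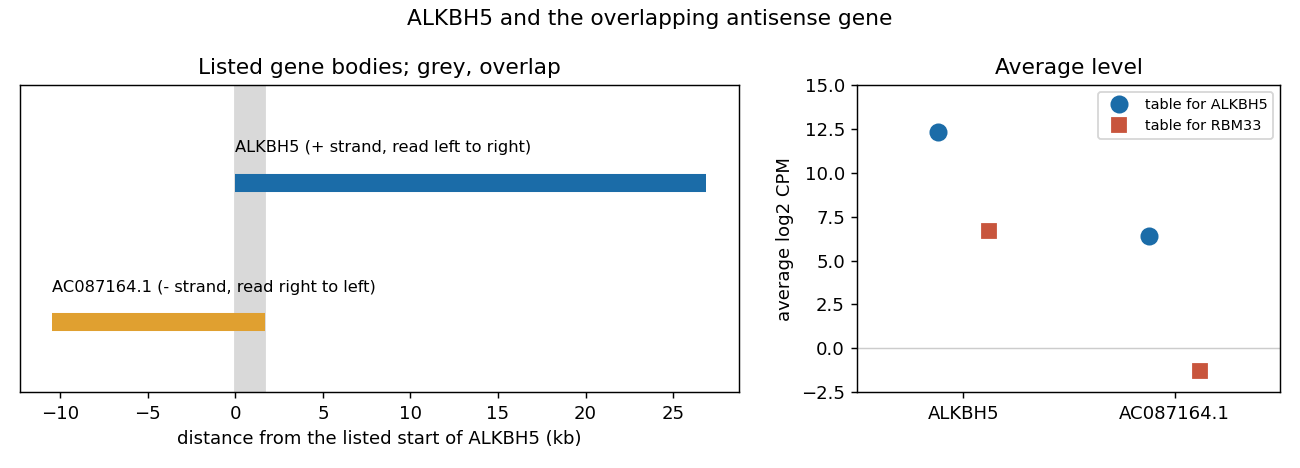
Left, the listed bodies of ALKBH5 and AC087164.1 by distance from the listed start of ALKBH5 in kb, with their overlap of 1676 bases in grey. Right, the average log2 CPM of both genes in the authors' deposited tables for ALKBH5 (blue circles, 12.30 and 6.40) and RBM33 (red squares, 6.68 and -1.29); both genes are higher in the table for ALKBH5.

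FTO (ENSG00000140718, chromosome 16, 53701692 to 54158512, plus strand), the other m6A demethylase, also acts on the N6,2′-O-dimethyladenosine beside the mRNA cap. It was not called in either comparison. Its log2 fold change was -0.26 (F = 3.68, adjusted p = 0.115) in the authors' deposited ALKBH5 table and -0.03 (F = 0.0442, adjusted p = 0.877) in the RBM33 table. The 263 protein-coding genes of like listed length were mostly positive, with medians of 0.87 and 0.94 in the authors' deposited tables, and FTO stood at percentiles 12.5 and 17.1 of them. Its value near 0 is therefore low for a gene of its listed length in each table. RPGRIP1L, a gene of the ciliary transition zone, starts within FTO on the opposite strand and overlaps it by 2247 bases. RPGRIP1L was positive at 1.15 (adjusted p = 6.05e-05) and 1.03 (adjusted p = 0.00161) in the authors' deposited ALKBH5 and RBM33 tables.

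The DNA and RNA repair enzymes ALKBH2 and ALKBH3 were negative in both tables. ALKBH2 removes alkyl groups from double-stranded DNA, and ALKBH3 works on single-stranded DNA and on RNA. ALKBH3 (ENSG00000166199, chromosome 11, 43880811 to 43920274, plus strand) had the most negative value of the family in each table. It stood at -1.49 (F = 126, adjusted p = 7.23e-07) in the authors' deposited ALKBH5 table and at -1.56 (F = 103, adjusted p = 1.53e-05) in the RBM33 table. Among 1474 protein-coding genes of like length, with medians of -0.64 and -0.74, it was at percentiles 14.7 and 14.2 in the authors' deposited tables. ALKBH3 thus lay below the interquartile range of like genes in both.

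ALKBH2 (ENSG00000189046, chromosome 12, 109088188 to 109093631, minus strand) had -0.88 (F = 33.2, adjusted p = 0.00023) in the authors' deposited ALKBH5 table. In the authors' deposited RBM33 table it had -0.61 (F = 14.7, adjusted p = 0.00759). These values are those of an ordinary gene of its length: ALKBH2 was at percentiles 41.2 and 55.9 of 1377 like genes in the authors' deposited tables. Its neighbour UNG, the uracil DNA glycosylase of base excision repair, starts 3965 bases away on the opposite strand and was negative at -0.71 and -1.06 in the authors' deposited ALKBH5 and RBM33 tables (adjusted p = 0.000895 and 0.000143).

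The transfer RNA enzymes ALKBH1 and ALKBH8 were negative as well. ALKBH8 joins an AlkB domain to a methyltransferase domain and modifies wobble uridines of transfer RNA, and ALKBH1 acts on methylated adenosine and cytosine of transfer RNA, also in mitochondria. ALKBH8 (ENSG00000137760, chromosome 11, 107502727 to 107565742, minus strand) stood at -0.77 (F = 23.6, adjusted p = 0.000883) in the authors' deposited ALKBH5 table. It stood at -0.61 (F = 14, adjusted p = 0.00862) in the authors' deposited RBM33 table. It was at percentiles 25.5 and 35.7 of 3073 genes of like length in the authors' deposited tables.

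ALKBH1 (ENSG00000100601, chromosome 14, 77672404 to 77708023, minus strand) had the weakest calls of the 4. Its log2 fold change was -0.60 (F = 7.18, adjusted p = 0.0333) in the authors' deposited ALKBH5 table and -1.21 (F = 10.3, adjusted p = 0.019) in the RBM33 table. It was at percentile 47.1 of 1868 like genes in the first and at 25.2 in the second of the authors' deposited tables. With a threshold of 0.01 it was called in neither of the authors' deposited tables. SLIRP, an RNA-binding protein that stabilises mitochondrial mRNAs, starts 47 bases from the start of ALKBH1 on the opposite strand. SLIRP was more negative than ALKBH1, at -1.95 (adjusted p = 6.40e-07) and -2.21 (adjusted p = 4.20e-06) in the authors' deposited ALKBH5 and RBM33 tables.

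ALKBH4, ALKBH6 and ALKBH7 were not called in either table, and they had the 3 lowest average log2 CPM of the family in each table, so the fewest reads stand behind their values. In the authors' deposited ALKBH5 table ALKBH4 (3.50 log2 CPM) lay close to the called ALKBH1 (3.56), and FTO (5.77) was not called either. Whether read number underlies the missing calls was not tested. ALKBH4 is known for demethylating actin, ALKBH7 is a mitochondrial protein tied to programmed necrosis, and ALKBH6 is less well known. ALKBH4 (ENSG00000160993, chromosome 7, 102456238 to 102464863, minus strand) had 0.53 (F = 2.51, adjusted p = 0.191) in the authors' deposited ALKBH5 table and 0.08 (F = 0.0508, adjusted p = 0.867) in the RBM33 table. Against a median of -0.66 and -0.77 in 1390 genes of like length it was at percentiles 86.7 and 79.6 in the authors' deposited tables. ORAI2, a calcium channel gene that overlaps ALKBH4 by 588 bases on the opposite strand, was positive for ALKBH5 at 0.66 (adjusted p = 0.0346) and not called for RBM33 at 0.10 (adjusted p = 0.8) in the authors' deposited tables.

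ALKBH6 (ENSG00000239382, chromosome 19, 36009120 to 36014239, minus strand) had values of either sign that did not pass. It stood at 0.61 (F = 2.56, adjusted p = 0.186) in the authors' deposited ALKBH5 table and at -0.28 (F = 0.305, adjusted p = 0.673) in the RBM33 table. The noncoding gene AC002116.1 shares 5116 bases with it on the same strand, so reads of both may be mixed or left uncounted. AC002116.1 was not called at -0.23 and -1.27 in the authors' deposited ALKBH5 and RBM33 tables (adjusted p = 0.679 and 0.121).

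ALKBH7 (ENSG00000125652, chromosome 19, 6372794 to 6375250, plus strand) is the shortest member, with a listed length of 1093 bases. Its log2 fold change of -1.11 (F = 4.75) in the authors' deposited ALKBH5 table missed the threshold (adjusted p = 0.0809). In the authors' deposited RBM33 table it had -0.30 (F = 0.466, adjusted p = 0.599). ALKBH7 was farther below 0 than the called ALKBH2 in the authors' deposited ALKBH5 table (-1.11 against -0.88), but with an average of 2.84 log2 CPM against 5.61 and an F of 4.75 against 33.2. The median of 264 genes of like length was -1.13 and -1.23, so that ALKBH7 was at percentiles 53 and 82.2 in the authors' deposited ALKBH5 and RBM33 tables. Its neighbours CLPP, a mitochondrial protease subunit, and GTF2F1, a subunit of the general transcription factor TFIIF, were negative in each of the authors' deposited tables, CLPP at -0.86 and -0.88 and GTF2F1 at -1.31 and -0.82 for ALKBH5 and RBM33.

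Over the family, 12 listed genes lay within 5 kb of a member, beside 7 of the 9 members, and ALKBH3 and ALKBH8 had none. Of these neighbours 4 were positive and 5 were negative in the authors' deposited ALKBH5 table, and 2 and 4 in the RBM33 table. Over all genes, 30.5% were positive and 29.1% were negative in the authors' deposited ALKBH5 table and 24.0% and 27.0% in the RBM33 table. Those not described above were USP30 beside ALKBH2 (-0.78 and -0.58), LRWD1 (-0.17 and -0.07) and MIR5090 (-0.31 and -1.36) beside ALKBH4, and AC002116.2 beside ALKBH6 (1.95 and 1.13), in the authors' deposited ALKBH5 and RBM33 tables. Of these USP30 was called for ALKBH5 alone and AC002116.2 in both tables.

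Levels of the members were compared per kb of listed length, taken from the table for RBM33, where ALKBH5 was not the bait. These are averages over all libraries of the authors' fit, both sides of the contrast together. Per kb, ALKBH5 (4.83 log2 CPM per kb), ALKBH3 (4.76) and ALKBH2 (4.43) stood highest in the authors' deposited RBM33 table. ALKBH8 (3.38), ALKBH7 (2.58) and ALKBH1 (2.16) followed there, and ALKBH4 (1.64), FTO (1.46) and ALKBH6 (-0.49) stood lowest in that of the authors' deposited tables. In the authors' deposited ALKBH5 table the bait stood at 10.45 log2 CPM per kb. That level was divided by its listed length of 3601 bases, which reads of the construct need not span. Of the others there, ALKBH3 (4.42), ALKBH2 (4.41) and ALKBH8 (3.03) were highest and FTO (1.35) and ALKBH6 (-0.16) lowest. ALKBH4 (2.30) and ALKBH1 (2.05) changed places between the authors' deposited tables. The gap of ALKBH5 and ALKBH3 in the authors' deposited RBM33 table is smaller than the difference of their log2 fold changes (-0.21 and -1.56), so their order on either side of the contrast is not given by these averages. Whether neighbours in this order differ beyond their spread cannot be given without values per library. The place of FTO rests on its listed length of 21379 bases, by which its level was divided and which is not that of 1 mRNA.

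**Figure D4:**
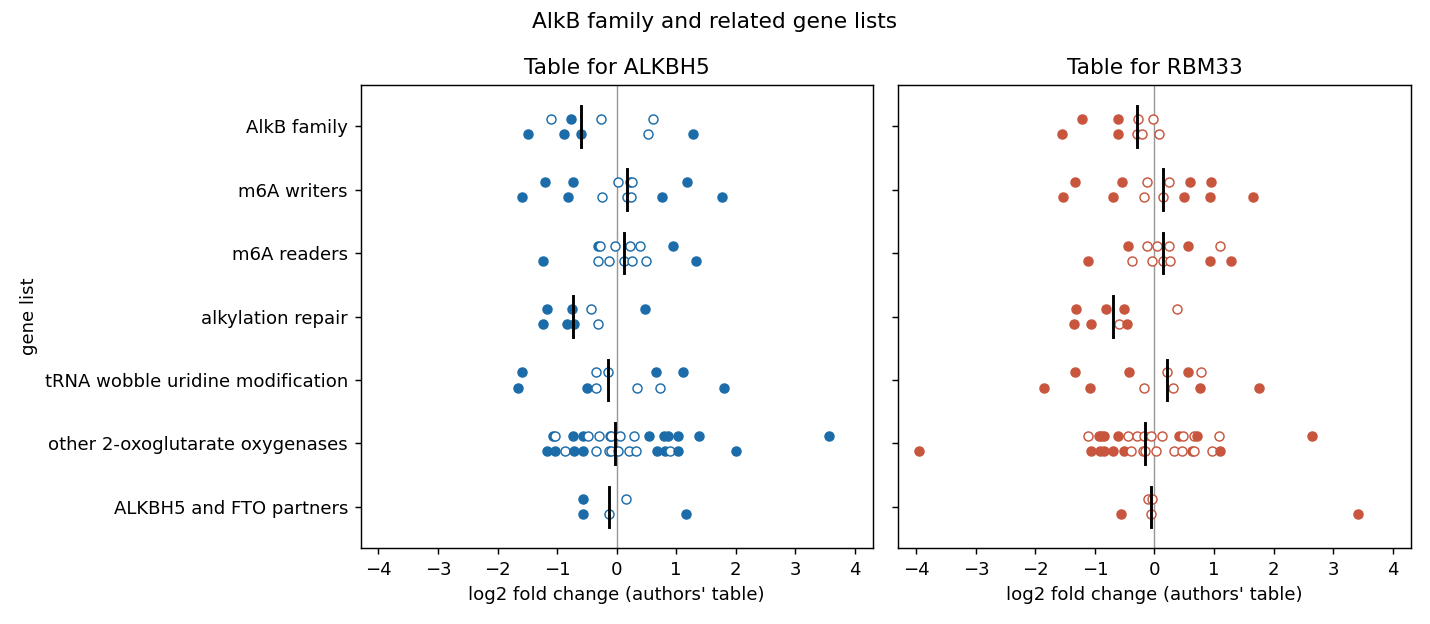
Log2 fold change of each listed gene (circles, filled where the adjusted p is under 0.05) of the AlkB family and of 6 related gene lists in the authors' deposited tables for ALKBH5 (left) and RBM33 (right); black ticks are medians. The AlkB family (medians -0.60 and -0.30) and alkylation repair (-0.73 and -0.71) have lower medians than the other 5 lists in both panels, and no AlkB gene exceeds 1.28. These medians are not adjusted for listed length, and both lists hold mostly short genes. Alkylation repair has a median listed length of 3426 bases, and the other 5 lists have 4368 to 7419. Set against genes of like length, the median difference was -0.25 and -0.36 for alkylation repair and -0.60 and -0.26 for the partners.

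Genes related to the family were read from lists chosen by function. A list for alkylation repair (MPG, ASCC1, ASCC2, ASCC3, APEX1, XRCC1, POLB and UNG) had more negative than positive calls. Of these 8 listed genes, 1 was positive and 5 negative in the authors' deposited ALKBH5 table (median -0.73), and 0 and 6 in the RBM33 table (median -0.71). UNG, the uracil DNA glycosylase and neighbour of ALKBH2 described above, is among the negative genes of both tables. The negative calls are 62.5% and 75% of the list in the authors' deposited ALKBH5 and RBM33 tables, beside 29.1% and 27.0% of all genes and 33.3% and 31.2% of protein-coding genes. These genes are short, with a median listed length of 3426 bases, and 5 and 6 of the 8 lay below the median of protein-coding genes of like length in the authors' deposited ALKBH5 and RBM33 tables. At an unadjusted p under 0.05, 1 gene of the list, ASCC3, was positive in the authors' deposited RBM33 table, by edgeR's test. APEX1, the abasic site endonuclease, was the most negative in the authors' deposited ALKBH5 table at -1.23 (adjusted p = 4.12e-06). DNA polymerase beta (POLB) was the most negative in the authors' deposited RBM33 table at -1.36 (adjusted p = 0.000481). ASCC3, the helicase that unwinds DNA for ALKBH3, was positive at 0.48 (adjusted p = 0.00466) in the authors' deposited ALKBH5 table and not called at 0.37 (adjusted p = 0.0596) in the RBM33 table.

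The wobble uridine pathway of ALKBH8 went both ways. Of 11 listed genes, 3 were positive and 3 were negative in the authors' deposited ALKBH5 table, and 3 and 4 in the RBM33 table. The positive and negative calls are 27.3% and 27.3% of the list in the authors' deposited ALKBH5 table and 27.3% and 36.4% in the RBM33 table, beside 30.5% and 29.1%, and 24.0% and 27.0%, of all genes. TRMT9B, a relative of the ALKBH8 methyltransferase domain, was the most positive at 1.81 (adjusted p = 0.000662) and 1.75 (adjusted p = 0.00483) in the authors' deposited tables. ELP5, an Elongator subunit, was the most negative at -1.66 (adjusted p = 1.83e-06) and -1.85 (adjusted p = 1.34e-05) in the authors' deposited tables. TRMT112, the activating subunit of ALKBH8 and of several other methyltransferases, was negative at -1.59 and -1.33 in the authors' deposited ALKBH5 and RBM33 tables (adjusted p = 1.09e-06 and 5.16e-05).

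The m6A writers and readers had calls of both signs. The writer list is not limited to enzymes of the internal mark of mRNA. It includes METTL5 and TRMT112, of ribosomal RNA methylation, which were negative in both tables. Both are short, with listed lengths of 2865 and 1100 bases. Against genes of like length, the median difference of the writers was -0.11 for ALKBH5 and 0.14 for RBM33 by the authors' deposited tables. That of the readers was -0.03 and -0.07. Of 13 writers, 3 were positive and 4 were negative in the authors' deposited ALKBH5 table (median 0.18), and 5 and 4 in the RBM33 table (median 0.14). RBM15, an RNA-binding adaptor of the methyltransferase complex, led at 1.77 (adjusted p = 1.11e-07) and 1.65 (adjusted p = 3.78e-05) in the authors' deposited tables. At the other end were TRMT112 in the table for ALKBH5 and METTL5, which methylates ribosomal RNA together with TRMT112, at -1.53 (adjusted p = 3.05e-05) in the RBM33 table, from the authors' deposited tables. Of 13 readers, 2 were positive and 2 negative for ALKBH5 (median 0.12), and 3 and 2 for RBM33 (median 0.15) by the authors' deposited tables. Writers had 23.1% positive and 30.8% negative calls and readers 15.4% and 15.4% in the authors' deposited ALKBH5 table, beside 30.5% and 29.1% of all genes. The corresponding shares in the authors' deposited RBM33 table were 38.5% and 30.8% for writers and 23.1% and 15.4% for readers, beside 24.0% and 27.0% of all genes. The helicase YTHDC2 (1.34, adjusted p = 1.45e-06) was the most positive reader in the authors' deposited ALKBH5 table and PRRC2A (1.29, adjusted p = 7.88e-05) in the RBM33 table. HNRNPC was the most negative reader at -1.24 and -1.12 in the authors' deposited ALKBH5 and RBM33 tables (adjusted p = 8.16e-06 and 0.000184).

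Other 2-oxoglutarate oxygenases, which share the cofactors of the family, included a value larger than that of any AlkB gene. Of 32 listed genes, 10 were positive and 7 were negative in the authors' deposited ALKBH5 table (median -0.03), and 5 and 10 in the RBM33 table (median -0.16). These are 31.2% positive and 21.9% negative in the authors' deposited ALKBH5 table, and 15.6% and 31.2% in the RBM33 table, beside 30.5% and 29.1%, and 24.0% and 27.0%, of all genes. TET2, which oxidises methylcytosine in DNA, stood at 3.56 (adjusted p = 7.19e-09) and 2.65 (adjusted p = 2.13e-06) in the authors' deposited ALKBH5 and RBM33 tables. Its listed length is 16474 bases. PHYH, a peroxisomal hydroxylase, was the most negative in the authors' deposited ALKBH5 table at -1.17 (adjusted p = 0.00107). P3H2, a collagen prolyl hydroxylase, was the most negative in the authors' deposited RBM33 table at -3.96 (adjusted p = 0.0179), at an average of only 0.25 log2 CPM.

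Among 5 partners of the m6A demethylases, RBM33 was positive in both tables and is the bait of one of them. It had 1.17 (adjusted p = 7.10e-06) in the authors' deposited ALKBH5 table, and its listed length is 13132 bases. SENP1, a SUMO protease that RBM33 is known to bring to ALKBH5, was negative at -0.56 in each of the authors' deposited ALKBH5 and RBM33 tables (adjusted p = 0.00329 and 0.0126). SFPQ, a nuclear RNA-binding protein that associates with FTO, was negative in the authors' deposited ALKBH5 table (-0.56, adjusted p = 0.00739) but not called in the RBM33 table (-0.06, adjusted p = 0.792). DDX3X, a helicase that binds ALKBH5, and PIAS4, a SUMO ligase, were not called, with values between -0.12 and 0.15 in the authors' deposited tables. Positive and negative calls are 20% and 40% of the list in the authors' deposited ALKBH5 table, beside 30.5% and 29.1% of all genes. They are 20% and 20% in the authors' deposited RBM33 table, beside 24.0% and 27.0% of all genes.

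Genes with a pattern like that of the m6A demethylases were sought by the distance of the log2 fold changes over both comparisons, which is a likeness over 2 values only. DEPDC4 (1.28 and -0.15), ATPSCKMT (1.33 and -0.16) and GNPTG (1.27 and -0.29) were the protein-coding genes nearest to ALKBH5 in the authors' deposited ALKBH5 and RBM33 tables. None of these 3 is near ALKBH5 in level, with averages between 2.01 and 3.90 log2 CPM in the authors' deposited ALKBH5 table. Nearest to FTO were SS18L2 (-0.25 and -0.03), ITPR3 (-0.25 and -0.02) and MICALL1 (-0.25 and -0.02) in the authors' deposited tables, none of which was called in either.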

How the data were processed

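RNA of pull-down and input libraries was measured by RIP-seq in 16 libraries; replicate cultures are not described in the labels, so p-values may measure technical spread. The submitters' processing notes name edgeR 3.24.3, Subread 1.6.4 with featureCounts, HISAT2 2.1.0 and cutadapt 1.18, and the build hg38. Annotation, low-count filter, normalization and strand setting: not given in the sources used here. Each table deposited by the authors gives, per the file headers, log2 fold changes, average log2 CPM, an F statistic (a score without fixed range), p-values and Benjamini-Hochberg adjusted p-values per gene. The tables hold no values per library, so no model was refitted and the authors' test was used as deposited.

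Calls, ranks, per-kb levels, medians, overlaps within 5 kb and the alternatives were computed with Python 3.11.15, pandas 2.3.3 and numpy 2.4.6; the adjustment was tested on simulated data. Recomputing it over 16324 genes gave the deposited adjusted p-values. The members and lists were chosen with earlier results of these data known. Named genes were all members, their neighbours, the most positive and most negative called gene of each list and table, the 3 genes nearest to ALKBH5 and FTO, and the 5 genes with the largest level difference each way; DDX3X and PIAS4 fall outside that rule and were named after their values were seen. List symbols were also searched under RefSeq (GRCh38.p14) synonyms.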

Additional observations from a re-analysis of the deposited data

How the results depend on the processing

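Alternatives were run on the calls of the members in both tables. With a minimum of 1 log2 unit, 2 members were called for ALKBH5 (1 positive, 1 negative) and 2 for RBM33 (both negative) in the authors' deposited tables. With a Bonferroni adjustment, 1 member was called in each of the authors' deposited tables, ALKBH3 (negative), and 0 were positive for ALKBH5. A threshold of 0.01, an adjustment over protein-coding genes only, one over genes of at least median abundance (which leaves out 4 members in each table) and subtracting the protein-coding median kept the counts within 1.5 times. Of 100 member values under an alternative, 85 kept their sign and side of the threshold and 14 lost their call. The remaining 1 changed sign: FTO in the table for RBM33 moved from -0.03 to 0.10 with the median of -0.13 subtracted. Many of the 85 were fixed in advance. A member not called at first could not gain a call under a stricter setting, and all 14 losses fell on called members. Only subtracting the median changes a log2 fold change, so no other alternative could change a sign. No paired analysis was possible because values per library are missing from both tables, and for the same reason no library could be left out.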

Other observations

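Apart from both baits and AC087164.1, 7 genes are among the 5 with the largest difference in average level in either direction between the tables. HBB, the beta chain of haemoglobin, averaged 3.41 log2 CPM in the authors' deposited RBM33 table and -1.43 in the ALKBH5 table. ANKRD1, a target gene of YAP, averaged 6.18 for RBM33 and 3.75 for ALKBH5 by the authors' deposited tables. The secretory granule gene CHGA (1.51 and -0.29) and the chemokine CXCL8 (0.52 and -1.24) were also higher for RBM33 than for ALKBH5 by the authors' deposited tables. In the other direction, DDX58, the viral RNA sensor RIG-I, averaged 4.66 log2 CPM for ALKBH5 and 2.32 for RBM33 by the authors' deposited tables. POU2F2, a transcription factor of B cells (1.03 and -1.04), and the histone gene H2BC8 (1.63 and -0.26) followed in the authors' deposited ALKBH5 and RBM33 tables. Differences in level between the tables have no test here. HBB, CHGA, CXCL8, POU2F2 and H2BC8 each had a negative average log2 CPM in the table where they were lower, so few reads stand behind that value. Several of these genes had large log2 fold changes in the authors' deposited ALKBH5 table that did not pass. They were H2BC8 (-5.05, adjusted p = 0.122), DDX58 (3.97, adjusted p = 0.128), CXCL8 (-3.85, adjusted p = 0.116) and HBB (3.13, adjusted p = 0.232). POU2F2 did pass there, at 2.22 (adjusted p = 0.00571 by edgeR's test).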
